A study of Mus musculus with 2 samples.

Results

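Cell-surface receptors by which muscle satellite cells and myoblasts are recognised, and by which they receive growth factor signals, were compared between cultured mouse skeletal myoblasts without and with the forkhead transcription factor gene Foxj3. The set held 10 genes (Vcam1, Cd34, Cxcr4, Met, Fgfr1, Fgfr4, Calcr, Megf10, Chodl and Cd82) of 18193 genes named on the array, and all of their probe sets were taken, 20 of 45037. A probe set is a group of short oligonucleotides on the array meant to read the transcripts of 1 gene, though some can match those of other genes. RNA came from 1 Foxj3 knockout (KO) and 1 wild-type (WT) myoblast culture, both at passage 3, grown in medium with 20% fetal bovine serum and taken at 80% confluency. Each RNA was hybridised to 1 Mouse430_2 oligonucleotide array. Nothing was given in the sources used here on the strain, age and number of donor animals, on the part of Foxj3 that was removed or on how the myoblasts were isolated. The comparison asks which of these receptors differ in signal between the cultures. With 1 array per genotype there was no replicate, no test was possible, and every value describes these 2 arrays.

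Satellite cells are the stem cells of skeletal muscle. They rest under the basal lamina of the muscle fibre and are recognised there by surface proteins such as the calcitonin receptor, CD34 and VCAM1. After injury, hepatocyte growth factor acting on MET and fibroblast growth factors acting on FGFR1 and FGFR4 drive them into division as myoblasts, and CXCL12 acting on CXCR4 guides their migration.

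The arrays had medians of 63.94 (KO) and 62.03 (WT) on the deposited intensity scale. The detection floor, below which a signal was not read as present, was set at 47.04, the 40th percentile of both arrays together. By this floor 14597 genes were measured, that is, over it on at least 1 array by their brightest probe set. A difference of at least 2-fold was counted. The brightest probe set of Foxj3 was 6.41-fold lower on the KO array (77.28 in KO against 495.51 in WT) and another over the floor was 1.25-fold higher (99.40 in KO against 79.74 in WT), so its probe sets did not settle the labels between them. All 8 myoblast markers were over the floor on both arrays. Among them Myod1, which commits cells to the myogenic lineage, read 1750.95 on the KO array against 631.27 on the WT array. Myog, which drives differentiation, read 487.79 on the KO array against 1753.96 on the WT array. The log2 ratios, KO over WT, of the others were -0.01 for Myf5, 0.04 for Chrna1, 0.29 for Pax7 and -0.89 for Des. Those of Itga7 and Cdh15 were -0.62 and -0.55. A second probe set gave 1.27 for Pax7 and 0.82 for Des. Over the 8 markers 3 ratios were over 0 and 5 under it, with a median of -0.28.

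By the brightest probe set of each gene, none of the 10 receptors differed by 2-fold. Past 2-fold, 3.73% of all measured genes were higher on the KO array (544) and 6.72% were lower (981). When the arrays were brought to the same median of the values over the floor, an alternative chosen after seeing the data, these counts were 720 higher and 760 lower, and 0 of the receptors differed by 2-fold. For 7 receptors the brightest probe set passed the floor on at least 1 array, and those of Cd34, Cxcr4 and Chodl were under it on both. At the level of single probe sets, 14 of the 20 were measured and 6 were under the floor on both arrays. Of the 14, 4 were past 2-fold on the higher side and 0 on the lower side, where the shares over all 30505 measured probe sets were 5.44% and 6.29%. The 4 belonged to Vcam1 (2), Met (1) and Fgfr1 (1), and in each of these genes the brightest probe set was under 1.5-fold. Of the 4, those of Met and Fgfr1 were over the floor on the KO array alone.

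**Figure D1:**
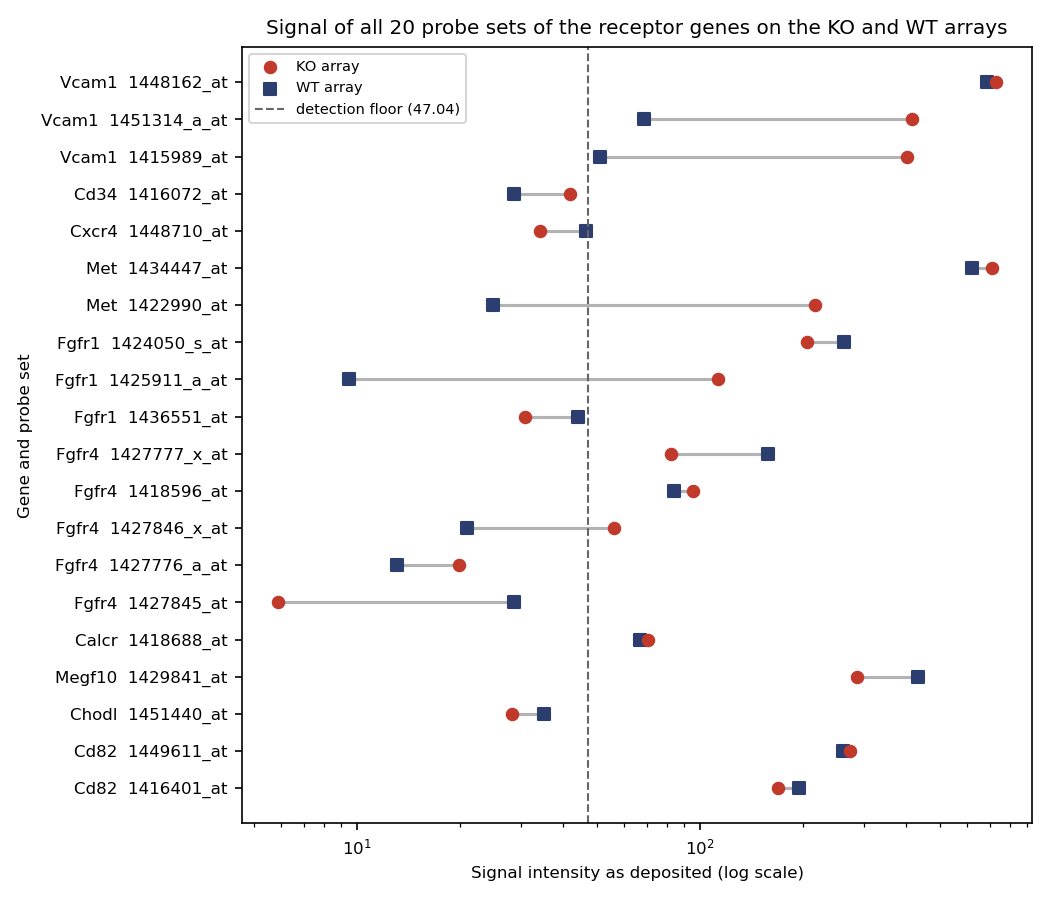
Signal intensity as deposited (log scale) of the 20 probe sets of the receptor genes on the KO array (circles) and the WT array (squares), with the detection floor of 47.04 as a dashed line. The widest gaps among probe sets that passed the floor on an array are those of Fgfr1 1425911_a_at, Met 1422990_at, Vcam1 1415989_at and Vcam1 1451314_a_at, all higher on the KO array, while the brightest probe sets of Vcam1, Met, Calcr and Cd82 lie close together on both arrays.

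Vcam1 encodes an adhesion receptor of the immunoglobulin superfamily that binds alpha4 integrins, and it marks quiescent satellite cells. Its 3 probe sets gave different answers. The brightest, 1448162_at, read 729.97 on the KO array against 687.48 on the WT array, 1.06-fold higher (log2 ratio 0.09), and this small ratio turned to -0.05 with quantile scaling. The probe set 1415989_at read 400.71 on the KO array against 51.07 on the WT array, 7.85-fold higher (log2 ratio 2.97). The probe set 1451314_a_at read 414.76 on the KO array against 68.91 on the WT array, 6.02-fold higher (log2 ratio 2.59). The last 2 were therefore well up the range of signals on the KO array and near the middle on the WT array. Their WT values were over the floor of 47.04 by a small margin. Ranked within its own array, 1415989_at stood at percentile 91.9 of all probe sets on the KO array and at 43.5 on the WT array. The probe set 1451314_a_at stood at percentile 92.2 on the KO array and 53.3 on the WT array, and 1448162_at at 96.0 (KO) and 96.2 (WT). Only 40 of the 30505 measured probe sets, itself included, had a ratio at least as high as 1415989_at. Over the alternatives of scaling and floor the log2 ratio of 1415989_at ranged from 2.19 to 3.06 and that of 1451314_a_at from 1.99 to 2.70. The mean log2 ratio over the 3 probe sets was 1.88, so whether Vcam1 counted as 2-fold higher depended on how its probe sets were combined.

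Disagreement of this kind was present elsewhere on the arrays, mostly in the same direction. Of 6251 genes with at least 2 measured probe sets, 4040 were under 1.5-fold by the brightest. Among these 4040 genes another probe set was at least 4-fold higher on the KO array in 81 (2.005%) and at least 4-fold lower in 14 (0.35%). At 2-fold these counts were 534 (13.2%) and 371 (9.18%). Vcam1 and Met were among the 81. Of the 1695 such genes with at least 2 other measured probe sets, Vcam1 was 1 of 7 in which at least 2 of the others were at least 4-fold higher. The part of this general asymmetry in the values of Vcam1 and Met was not tested, and the positions of the probes in the transcripts were not used here.

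**Figure D2:**
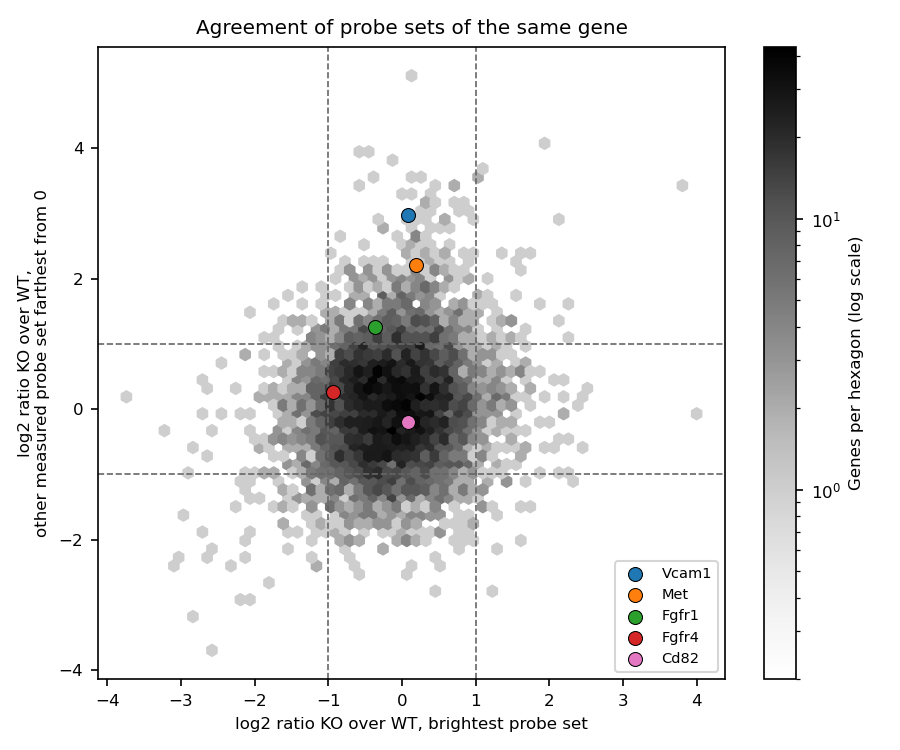
For each gene with at least 2 measured probe sets, the log2 ratio (KO over WT) of the brightest probe set is plotted against that of the other measured probe set farthest from 0. Grey hexagons count genes on a log scale, coloured points are the 5 receptors with such a pair, and dashed lines mark 2-fold. Vcam1 (0.09 and 2.97) and Met (0.20 and 2.21) lie near 0 on one axis and past 2-fold on the other, while Cd82 (0.08 and -0.20) lies near 0 on both.

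VCAM1 is also made by endothelial and stromal cells, so the markers of such cells are given beside it. Of 10 endothelial markers, 4 were over the floor on the KO array and 2 on the WT array by their brightest probe sets, with summed signals of 641.94 (KO) and 496.37 (WT). The markers Pecam1, Vwf, Tek, Tie1, Emcn and Cldn5 were under the floor on both arrays, and the median log2 ratio of the 4 measured was 0.51. Esam, an adhesion protein of endothelial junctions, read 94.66 on the KO array and 45.06 on the WT array, under the floor, and was at least 2.01-fold higher. Cdh5, the cadherin of these junctions, was over the floor on the KO array alone (63.12 in KO against 28.30 in WT). Egfl7, a secreted protein of endothelium, read 221.22 on the KO array against 145.74 on the WT array. Another of its probe sets was 7.18-fold higher (358.97 in KO against 50.03 in WT, near the floor). The remaining ones of Egfl7 had log2 ratios of 0.22 and -0.37. Kdr read 101.27 on the KO array against 110.20 on the WT array. Of the 4 measured endothelial markers 3 thus had a log2 ratio over 0.

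Of the 9 fibroblast and fibro-adipogenic markers on the array, 7 were over the floor on the KO array and 5 on the WT array, with summed signals of 2005 (KO) and 1711 (WT). Thy1 and Lum were under it on both. Of the 7 measured, 5 were higher on the KO array and 2 lower, with a median log2 ratio of 0.40. The collagen genes read 701.07 (KO) against 423.24 (WT) for Col1a2 and 480.72 (KO) against 365.03 (WT) for Col3a1. Col1a1 read 83.72 (KO) against 59.76 (WT). Its other probe set read 104.59 on the KO array and 35.57 on the WT array, under the floor, and was at least 2.22-fold higher. The other probe sets of Col1a2 had log2 ratios of 0.83 and 0.07. Dcn, a matrix proteoglycan, and Tcf21 were over the floor on the KO array alone, with 67.49 (KO) against 24.06 (WT) and 56.37 (KO) against 42.18 (WT). The lower genes were Pdgfra, at 388.91 on the KO array against 453.70 on the WT array, and Tcf7l2, 2.14-fold lower (139.13 in KO against 298.41 in WT). The other 3 probe sets of Tcf7l2 had log2 ratios over 0.

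Of 8 pericyte and smooth muscle markers, 6 were over the floor on the KO array and 5 on the WT array, with Cspg4 and Pdgfrb under it on both. Their summed signals of 6708 (KO) and 8702 (WT) came mostly from Acta2 (5080.98 in KO against 6049.03 in WT) and from Des of the myoblasts (1090.79 in KO against 2024.29 in WT). The remaining measured members went both ways. Myh11, a smooth muscle myosin, was 3.99-fold lower (84.77 in KO against 337.84 in WT). Notch3 was 1.90-fold higher (260.02 in KO against 136.92 in WT), and Mcam at least 1.86-fold higher (87.55 in KO against 28.53 in WT, under the floor). Rgs5 read 90.38 on the KO array and 86.07 on the WT array. Of 10 leukocyte markers 6 were over the floor on each array, with summed signals of 1003 (KO) and 1057 (WT), and Ptprc, Itgam and Cd68 were under it on both. By the brightest probe sets none of the 7 measured reached 2-fold, with 3 higher and 4 lower. The shares past 2-fold over all measured genes were 3.73% higher and 6.72% lower. Csf1r had a log2 ratio of 0.69 by its brightest probe set. Another of its probe sets was 2.16-fold higher (183.94 in KO against 85.31 in WT), and the third gave a log2 ratio of -0.35. In bulk RNA, fewer cells of a type and less RNA per cell cannot be told apart, and the part of cells with these markers in the signal of Vcam1 was not tested.

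The partners of VCAM1 and CD34 were read from a list of 12 genes, of which 10 were measured. On the KO array 2 were higher by 2-fold or more, 1 was lower by as much and 7 were under 2-fold, beside shares of 3.73% and 6.72% over all measured genes. The median log2 ratio was 0.07, beside -0.06 over all. Itgb1, the beta1 chain that pairs with the alpha4 integrin chain to form the VCAM1 receptor, read 490.11 on the KO array against 167.57 on the WT array (2.92-fold higher). Its other probe sets read 463.57 (KO) against 102.20 (WT) and 223.94 (KO) against 42.67 (WT), the last at least 4.76-fold higher, so all 3 were higher on the KO array. Crkl, an adaptor protein that binds CD34, was 2.58-fold higher (218.83 in KO against 84.92 in WT), and its other probe set was at least 2.64-fold higher. Itga4, the alpha4 chain itself, was close at 333.80 on the KO array and 357.08 on the WT array. Ezr, which encodes ezrin, a linker of membrane proteins to actin, was 2.40-fold lower (129.30 in KO against 310.35 in WT), and the second probe set gave a log2 ratio of -0.49.

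Cd34 and Calcr, which with Vcam1 stand for the quiescent satellite cell, gave little signal. Cd34 encodes a sialomucin of satellite cells and of blood and vessel progenitors. Its single probe set read 41.70 on the KO array and 28.74 on the WT array, under the floor on both, so no fold is given. Calcr encodes the G protein-coupled receptor for calcitonin. Its single probe set read 70.34 on the KO array and 66.85 on the WT array, 1.05-fold higher (log2 ratio 0.07), at percentile 53.2 of the KO array and 52.3 of the WT array. Both values were near the middle of the range and over the floor by a small margin.

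Of 11 partners of the calcitonin receptor, 10 were measured. There was 1 past 2-fold in each direction, beside shares of 3.73% higher and 6.72% lower over all measured genes, and the median log2 ratio was 0.21. Ramp3, a membrane protein that changes the ligand specificity of the receptor, read 134.57 on the KO array and 45.19 on the WT array, under the floor, and was at least 2.86-fold higher. Calcrl, the related receptor for calcitonin gene-related peptide and adrenomedullin, read 40.50 on the KO array, under the floor, and 101.83 on the WT array, at least 2.16-fold lower. Each of these came from 1 measured probe set. Col5a1, a chain of collagen V, which is a ligand of the receptor in mouse satellite cells, read 232.29 on the KO array and 168.14 on the WT array.

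Met encodes the receptor tyrosine kinase for hepatocyte growth factor, and its 2 probe sets differed. The brightest, 1434447_at, read 710.91 on the KO array against 620.94 on the WT array, 1.14-fold higher (log2 ratio 0.20). The other, 1422990_at, read 217.19 on the KO array and 24.88 on the WT array, under the floor, and was at least 4.62-fold higher. Within its own array 1434447_at stood at percentile 95.9 on the KO array and 95.4 on the WT array. The probe set 1422990_at stood at 83.3 on the KO array and 20.4 on the WT array. Over the alternatives the log2 ratio of 1422990_at ranged from 1.33 to 3.13, and that of 1434447_at from 0.10 to 0.29. The mean over both was 1.20, past 2-fold.

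Among 16 genes of the HGF and Met pathway 13 were measured, and 0 differed by 2-fold where 3.73% of all genes were higher and 6.72% lower. The ligand gene Hgf read 100.82 on the KO array and 66.68 on the WT array. The members with the largest ratios were Sos1, an exchange factor that activates Ras, and Hgfac, a protease that activates the ligand. Sos1 read 241.49 on the KO array and 454.21 on the WT array, a log2 ratio of -0.91, and its other probe set had a ratio of the opposite sign (1.51). Hgfac read 257.42 on the KO array and 151.90 on the WT array (log2 ratio 0.76). Cd44, a co-receptor of MET chosen here after its values were seen, had a like pattern of smaller size. Its brightest probe set read 3237.69 on the KO array and 3247.76 on the WT array, and the others were 2.01-fold and 2.48-fold higher on the KO array.

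Fgfr1 and Fgfr4 encode receptor tyrosine kinases for fibroblast growth factors. The brightest probe set of Fgfr1, 1424050_s_at, read 205.00 on the KO array and 263.21 on the WT array, 1.28-fold lower (log2 ratio -0.36). Its probe set 1425911_a_at read 112.98 on the KO array and 9.46 on the WT array, under the floor, and was at least 2.40-fold higher. The bound came under 2-fold with the floor at the 60th percentile (log2 ratio 0.39) and with loess scaling (0.26). The third probe set, 1436551_at, read 30.91 on the KO array and 44.22 on the WT array, both under the floor. The probe sets of Fgfr1 that were measured thus had ratios of opposite sign, and their mean log2 ratio was 0.45.

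Fgfr4, which is expressed by myogenic precursors, had 5 probe sets, of which 3 passed the floor on an array. The brightest, 1427777_x_at, read 82.47 on the KO array and 157.78 on the WT array, 1.91-fold lower or -0.94 on the log2 scale, the lowest ratio of any receptor probe set measured. The probe set 1418596_at read 95.50 on the KO array and 84.16 on the WT array (log2 ratio 0.18). The probe set 1427846_x_at read 56.08 on the KO array and 20.95 on the WT array, and its bound of 1.19-fold grew to 2-fold or more with the floor at the 20th percentile (log2 ratio 1.15). The remaining pair, 1427776_a_at and 1427845_at, read 19.84 and 5.89 on the KO array and 13.09 and 28.68 on the WT array, all under the floor. An ending of _x_at or _s_at marks probes that can match transcripts of other genes, and without such probe sets, and without those ending in _a_at, the log2 ratio of Fgfr4 was 0.18. No direction of Fgfr4 was therefore shared by its probe sets.

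**Figure D3:**
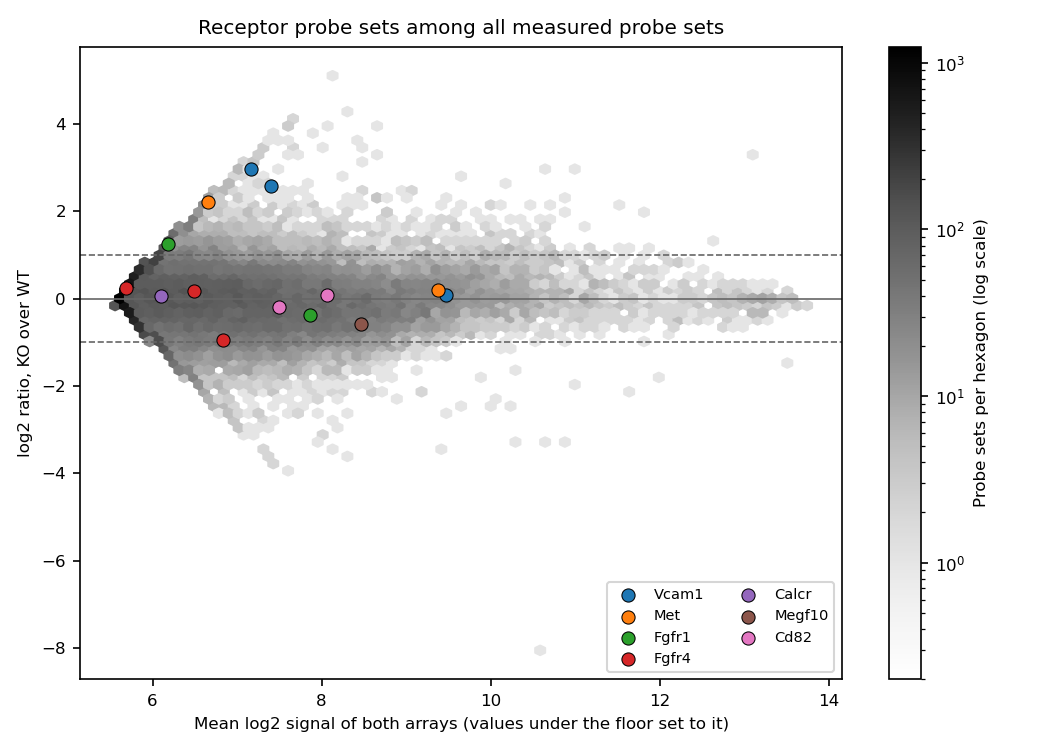
The log2 ratio of KO over WT is plotted against the mean log2 signal for all 30505 measured probe sets (grey hexagons, counts on a log scale) and for the measured receptor probe sets (coloured points). Dashed lines mark 2-fold. The 4 receptor points above the upper line are those of Vcam1 (2.97 and 2.59), Met (2.21) and Fgfr1 (1.26), and none lies below the lower line. Ratios with a value under the floor on 1 array are bounds, and such points form the slanted edges on the left.

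Of 12 fibroblast growth factor genes 9 were measured. By 2-fold or more 0 of them were higher on the KO array and 3 lower, where 3.73% and 6.72% of all measured genes were. Fgf21, a metabolic hormone of the family, read 133.32 on the KO array and 602.94 on the WT array, 4.52-fold lower. Fgf10 read 47.55 on the KO array and 120.39 on the WT array (2.53-fold lower), and each of Fgf21 and Fgf10 had 1 measured probe set. Fgf13, an intracellular member of the family, read 149.73 on the KO array and 341.67 on the WT array (2.28-fold lower), and the second probe set gave a log2 ratio of 0.31. Fgf2 and Fgf6, ligands that act on myoblasts, were under the floor on both arrays. The median log2 ratio of the list was 0.02 and turned negative with the median (-0.03) and loess (-0.50) scalings and with the floor at the 60th percentile (-0.02).

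A list of other fibroblast growth factor receptors, co-receptors and adaptors included Fgfr2 (log2 ratio 0.49), Fgfrl1 (0.83) and Fgfr3, under the floor on both arrays. Of the 17 genes of this list 14 were measured. On the KO array 2 were higher by 2-fold or more, 0 were lower by as much and 12 were under 2-fold, against 3.73% and 6.72% over all measured genes. The median log2 ratio was 0.44 and ranged from 0.30 to 0.54 over the alternatives. Gpc3, a heparan sulfate proteoglycan held to the membrane by a lipid anchor, read 469.53 on the KO array and 185.46 on the WT array, 2.53-fold higher. Sdc4, a syndecan of satellite cells that presents fibroblast growth factors to their receptors, was 4.59-fold higher (2148.91 in KO against 468.01 in WT) by its brightest probe set and 1.17-fold higher by the other (322.17 in KO against 275.96 in WT). Sdc3, the other syndecan of satellite cells, chosen after its values were seen, read 430.90 on the KO array and 225.62 on the WT array (log2 ratio 0.93). Its other probe sets had log2 ratios of 0.57 and 0.46.

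Of 16 genes of feedback and response downstream of the FGF receptors and ERK, 15 were measured. By the brightest probe sets 12 of these were under 2-fold, 1 was higher and 2 were lower, beside shares of 3.73% and 6.72% over all measured genes. The median log2 ratio was 0.23. Myc, a transcription factor of growth, read 533.09 on the KO array and 239.33 on the WT array (2.23-fold higher). Egr1, an immediate early gene, read 303.22 on the KO array and 641.88 on the WT array (2.12-fold lower). Spry4, an inhibitor of receptor tyrosine kinase signalling, read 37.47 on the KO array, under the floor, and 128.51 on the WT array, at least 2.73-fold lower, and the second probe set gave a log2 ratio of -0.16. The related inhibitors Spry1 and Spry2, chosen after their values were seen, read 110.70 and 462.25 on the KO array and 90.26 and 400.78 on the WT array.

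Cxcr4, the G protein-coupled receptor for the chemokine CXCL12, was under the detection floor. Its single probe set read 34.20 on the KO array and 46.61 on the WT array, and the WT value lay just under 47.04. The ligand gene Cxcl12 was over it, at 499.31 on the KO array and 484.54 on the WT array. Of 10 genes of this pathway 8 were measured. On the KO array 0 were higher by 2-fold or more and 1 was lower by as much (3.73% and 6.72% over all measured genes). This was Arrb2, a beta-arrestin that desensitises the receptor (97.20 in KO against 204.96 in WT, 2.11-fold lower), while its second probe set had a ratio of opposite sign (log2 0.76). The other CXCL12 receptor gene, Ackr3, chosen after its values were seen, read 165.83 on the KO array and 300.08 on the WT array (log2 ratio -0.86) by an _s_at probe set. The median log2 ratio of the list was -0.63. It was 0.69 without the probe sets ending in _s_at, _x_at and _a_at and 0.03 with the mean over probe sets, so no direction is given for it.

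The promoters of Met, Fgfr4 and Cxcr4 are shown because the knocked-out gene encodes a forkhead factor and these receptors are the growth factor and chemokine receptors with a window in the table used. Each is the window from 250 bases before to 50 bases after the start of the gene, from RefSeq, build GRCm38.p6. Met lies at chr6:17463707-17464006 on the + strand, Fgfr4 at chr13:55152568-55152867 on the + strand and Cxcr4 at chr1:128592250-128592549 on the - strand. Capitals mark E-boxes, the letters CANNTG read by basic helix-loop-helix factors such as MYOD1, and the forkhead letters TGTTTGC.
Met: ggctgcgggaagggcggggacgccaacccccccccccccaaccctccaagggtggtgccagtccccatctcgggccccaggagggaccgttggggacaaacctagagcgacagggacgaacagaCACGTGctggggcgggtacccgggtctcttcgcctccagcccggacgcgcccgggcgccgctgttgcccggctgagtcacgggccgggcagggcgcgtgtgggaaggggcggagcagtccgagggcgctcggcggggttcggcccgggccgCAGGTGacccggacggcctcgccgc
Fgfr4: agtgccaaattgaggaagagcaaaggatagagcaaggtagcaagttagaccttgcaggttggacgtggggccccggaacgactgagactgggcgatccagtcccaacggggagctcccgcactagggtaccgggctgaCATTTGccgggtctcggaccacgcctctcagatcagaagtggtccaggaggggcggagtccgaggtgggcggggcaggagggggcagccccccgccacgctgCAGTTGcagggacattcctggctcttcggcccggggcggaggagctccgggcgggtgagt
Cxcr4: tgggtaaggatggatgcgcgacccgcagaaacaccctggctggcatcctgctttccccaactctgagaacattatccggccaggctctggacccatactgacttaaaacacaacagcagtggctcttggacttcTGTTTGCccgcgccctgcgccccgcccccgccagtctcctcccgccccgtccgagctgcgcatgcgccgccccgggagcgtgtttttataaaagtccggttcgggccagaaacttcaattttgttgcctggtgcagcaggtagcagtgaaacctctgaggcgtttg

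Both strands were searched for the forkhead letters TGTTTAC and TGTTTGC, for CANNTG, and for the MEF2 letters TATTTTTA, and no matches overlapped. The search covered 11 windows of 7 receptor genes (Cd34, Cxcr4, Met, Fgfr4, Calcr, Chodl and Cd82). TGTTTGC was present in 1 window, that of Cxcr4, against 5.07% of the 32851 windows of the same length over all genes. TGTTTAC (3.65% of all windows) and TATTTTTA (2.72%) were in none of the 11. CANNTG is present in 72.3% of all windows. The Met window held CACGTG and CAGGTG, the Fgfr4 window CATTTG and CAGTTG, and the Cxcr4 window held none. A match describes these letters and not a site that is bound. Vcam1, Fgfr1 and Megf10 were not searched.

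Megf10, Chodl and Cd82 encode other surface proteins of the lineage. Megf10, a transmembrane protein with epidermal growth factor repeats that keeps mouse satellite cells dividing and serves engulfment in glia, read 287.76 on the KO array and 431.14 on the WT array. This was 1.498-fold lower (log2 ratio -0.58), and the log2 ratio ranged from -0.63 to -0.46 over the alternatives. It came from 1 probe set, and 17.4% of the measured probe sets had a ratio as low or lower. Chodl, which encodes the C-type lectin chondrolectin, read 28.36 on the KO array and 35.06 on the WT array, under the floor on both. Cd82, a tetraspanin of satellite cells, was close on both arrays by both probe sets, with 274.49 on the KO array and 260.52 on the WT array by 1449611_at and 169.10 (KO) and 193.91 (WT) by 1416401_at. The log2 ratios were 0.08 and -0.20, and over all genes the ratios of probe sets of the same gene had an SD of 0.66.

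Of 11 genes related to Megf10 or to engulfment, 10 were measured, with 1 past 2-fold in each direction, where the shares over all measured genes were 3.73% and 6.72%. The higher gene was Axl, a receptor tyrosine kinase that binds dying cells through a bridging ligand, at 1244.63 on the KO array and 216.52 on the WT array (5.75-fold), and the second probe set gave a log2 ratio of 0.24. The lower gene was Abca7, a lipid transporter, at 49.17 on the KO array and 113.38 on the WT array (2.31-fold). The closest relative Megf11 read 47.48 on the KO array and 44.47 on the WT array, at the floor.

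Among 21 other tetraspanins 17 were measured, with a median log2 ratio of 0.14. By the brightest probe sets 0 differed by 2-fold, where 3.73% of all measured genes were higher and 6.72% lower. The largest ratios by these probe sets were those of Cd81 and Tspan17. Cd81, which like Cd9 acts in myoblast fusion, read 2225.38 on the KO array and 1147.26 on the WT array (log2 ratio 0.96). Tspan17 read 143.49 on the KO array and 89.62 on the WT array (log2 ratio 0.68). Cd151, chosen after its values were seen, had a log2 ratio of 0.05 by its brightest probe set. Another of its probe sets was 2.04-fold higher (1052.51 in KO against 515.40 in WT), and the remaining ones gave 0.88, -0.02 and -0.22.

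Other surface proteins used to recognise satellite cells and myoblasts were measured for 16 of 18 genes. Of these 6 were higher by 2-fold or more on the KO array (37.5%, where the share over all measured genes was 3.73%) and 0 were lower by as much, with a median log2 ratio of 0.67 that ranged from 0.41 to 1.08 over the alternatives. They were Lgr6, Sdc4, Cd200, Itgb1, Tnfrsf12a and Ptk7. The list was chosen with earlier results of these data known, so its share is a description and not a test. Cd200, an immunoglobulin superfamily protein that restrains myeloid cells, read 596.64 on the KO array and 183.25 on the WT array (3.26-fold higher) by its 1 measured probe set. Tnfrsf12a, the receptor of the cytokine TWEAK, read 1309.71 and 1136.91 by its probe sets on the KO array and 475.52 and 449.11 on the WT array, so that both were over 2-fold higher (2.75-fold and 2.53-fold). Ptk7, a receptor of Wnt signalling, read 108.54 on the KO array and 16.69 on the WT array, under the floor, at least 2.31-fold higher. Lgr6, a receptor for R-spondins, was 4.90-fold higher (920.60 in KO against 187.74 in WT) by its brightest probe set, and the second gave a log2 ratio of -1.07. Lower on the KO array, but under 2-fold, the integrin alpha7 gene Itga7 read 429.72 on the KO array and 659.27 on the WT array, and the M-cadherin gene Cdh15 263.87 (KO) and 386.26 (WT). The list shares Sdc3, Sdc4 and Ncam1 with the FGF co-receptors, Itgb1 with the partners of VCAM1 and Cd81 with the tetraspanins.

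The receptors of other growth factors and cytokines held 28 measured genes of 29, with 2 higher by 2-fold or more on the KO array, 4 lower by as much (3.73% and 6.72% over all measured genes) and a median log2 ratio of -0.18. Erbb3, a neuregulin receptor, read 46.94 on the KO array, just under the floor, and 628.48 on the WT array, at least 13.4-fold lower, and the second probe set gave a log2 ratio of 0.26. Il6st, the signal-transducing subunit of the interleukin 6 family, was 3.45-fold lower (122.95 in KO against 424.59 in WT), and its other probe sets had log2 ratios of 0.10 and 0.61. The insulin receptor gene Insr was 3.21-fold lower (117.59 in KO against 377.75 in WT), and its others had -0.23 and 0.31. Lifr, the receptor of leukaemia inhibitory factor, read 44.74 on the KO array, under the floor, and 95.08 on the WT array, at least 2.02-fold lower. Ptprj, a receptor tyrosine phosphatase, was 5.27-fold higher and the second probe set gave a log2 ratio of -0.01. Il4ra, an interleukin 4 receptor subunit, was 2.37-fold higher with both of its other probe sets below 0. Of the 6 named here only Lifr had no other measured probe set, and each of the others had at least 1 of opposite sign.

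Over the 167 distinct genes of the 11 lists, 145 were measured, and 13 were past 2-fold in each direction (8.97% each). The shares over all measured genes were 3.73% and 6.72%. The median log2 ratio was 0.04 over these genes and -0.06 over all measured genes.

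**Figure D4:**
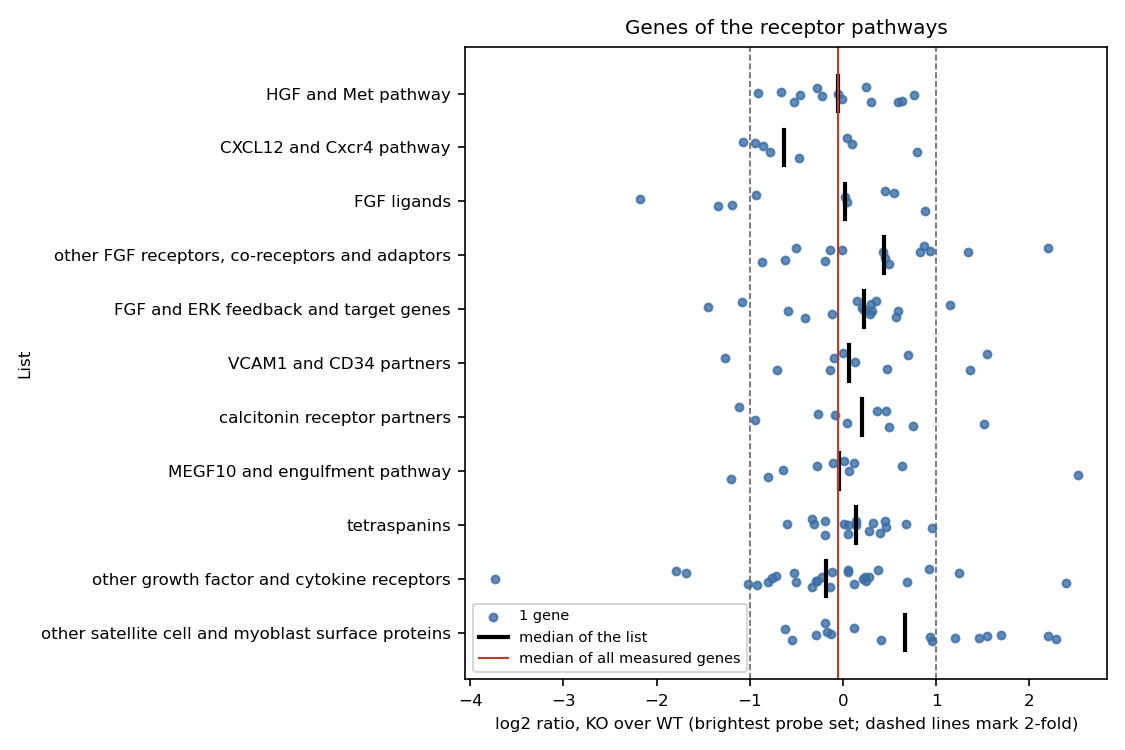
The log2 ratio of KO over WT by the brightest probe set is plotted for each measured gene (points) of the 11 lists, with the median of each list (black bars) and the median of all measured genes (red line, -0.06). Dashed lines mark 2-fold. The list of other satellite cell and myoblast surface proteins has 6 points past 2-fold on the higher side and 0 on the lower, while the HGF and Met pathway and the tetraspanins have none past either line. The lists were chosen with earlier results of these data known.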

How the data were processed

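Biotin-labelled cRNA was made from 10 ug of total RNA of each culture and hybridised to 1 Mouse430_2 array, per the labels' protocols and the file headers. The authors deposited a table of linear intensities, with a value for each probe set on each array. How probes were summarised and arrays scaled is not given in the sources used here, so the values were taken as they stand. The means without the top and bottom 2% were 125.53 (KO) and 126.12 (WT). Of 42 fields in the scanner records, 40 were identical. The number of arrays limits precision.

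Names came from the platform annotation of the probe sets, with symbols updated through Entrez identifiers (RefSeq table, GRCm38.p6, for names only). Of 45037 probe sets 34945 had 1 symbol, 932 several and 9160 were not listed, and only those with 1 symbol named a gene. Values under the floor (40th percentile) were set to it before log2 ratios, KO over WT, were taken. The brightest probe set (highest mean log2) stood for a gene. A ratio with 1 value under the floor is a bound ("at least"). The threshold was 2-fold and no p-value was computed. The receptors, the 11 pathway lists and the 5 marker lists were chosen with earlier results of these data known. Genes named are all receptor probe sets, list members at least 2-fold different (up to 6 a list, otherwise the 2 largest), and the myoblast markers. The other ligands, partners and markers named for their role lie outside this rule, and they were chosen after their values were seen. The calculation was tested on simulated data in which all probe sets of a gene shared the same effect. That test could not bear on disagreement between probe sets. Python 3.11.15, pandas 2.3.3 and statsmodels 0.14.6 (loess, span 0.3) were used. Alternatives were other scalings, floors (20th and 60th percentile, none), a pseudocount, the mean over probe sets, probe sets without _s_at, _x_at or _a_at endings, and thresholds of 1.5-fold and 3-fold.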

Additional observations from a re-analysis of the deposited data

How the results depend on the processing

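No paired analysis was possible because each genotype had 1 array, and no array could be left out. With the mean over measured probe sets the log2 ratio was 1.88 for Vcam1 and 1.20 for Met, so that 2 receptors counted as at least 2-fold higher, and it was 0.45 for Fgfr1 and -0.17 for Fgfr4. Without probe sets ending in _s_at, _x_at or _a_at it was 0.18 for Fgfr4. Fgfr1 had no measured probe set without these endings, and so no value in this alternative. At 1.5-fold 1 receptor, Fgfr4, counted as lower. The sign also changed for Vcam1 (-0.05, quantile scaling) and Cd82 (-0.06, mean over probe sets). Single probe sets changed sides of 2-fold for Fgfr1 1425911_a_at (0.26 with loess scaling, 0.39 with the floor at the 60th percentile) and Fgfr4 1427846_x_at (1.15 with the floor at the 20th percentile, 1.42 without a floor).

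Over all genes the higher count was 873 with the floor at the 20th percentile, 353 at the 60th, 898 without a floor, 313 with a pseudocount, 1866 at 1.5-fold and 109 at 3-fold. The lower count was 485 with a pseudocount, 626 with the mean over probe sets, 2811 at 1.5-fold and 221 at 3-fold. The CXCL12 list median was 0.030 with the mean over probe sets and 0.69 without the endings above, and that of the other satellite cell surface proteins was 1.08 without them. Of called genes 64.3% were lower as deposited, 69.2% with median scaling and 51.4% with equal medians over the floor. The causes were not tested. Signals near or under the floor limit what can be said of Cd34, Cxcr4, Chodl and Calcr. Such signals on the WT array also limit the ratios of the 4 receptor probe sets past 2-fold. Their WT values were 51.07 and 68.91 (Vcam1), 24.88 (Met) and 9.46 (Fgfr1), beside a floor of 47.04.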

Other observations

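The pattern of a brightest probe set under 1.5-fold with another at least 4-fold higher on the KO array was also present in the pathway lists for Etv5, a transcription factor induced by fibroblast growth factors, chosen after its values were seen. Its brightest probe set read 373.03 on the KO array and 317.86 on the WT array. Another read 208.54 on the KO array and 12.14 on the WT array, under the floor, and was at least 4.43-fold higher. Msn, which encodes moesin, a linker of membrane proteins to actin, was also chosen after its values were seen and lies outside the 1.5-fold limit. It was 1.62-fold higher by its brightest probe set and read 1229.17 on the KO array and 756.97 on the WT array, with 436.85 (KO) and 27.36 (WT) by the other, at least 9.29-fold higher. Ncam1, of the FGF co-receptors and likewise chosen after its values were seen, went mostly the other way. The log2 ratio of its brightest probe set was -0.19, and the others gave -1.35, -1.16, -1.09, -0.33, -0.22 and 1.02.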
